A study of Mus musculus with 2 samples.

Results

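The miR-199/miR-214 cluster is a small group of mouse miRNAs cut from the precursors of miR-199a, miR-199b and miR-214. Its 5 members here were fixed by name, as the rows of the array named mmu-miR-199a-5p, mmu-miR-199a-3p, mmu-miR-199b-5p, mmu-miR-214-3p and mmu-miR-214-5p, out of 1881 mouse miRNAs in all. They were measured in exosomes from LLC cells, a mouse Lewis lung carcinoma line, which were taken from the culture supernatant without any treatment of the cells. There was 1 group of 2 arrays, 1 for each of 2 independent experiments, both with Cy3 as the dye. Per the methods, the exosomes were collected by ultracentrifugation from medium with exosome-free serum. With 1 group, no difference between conditions was tested and no p-value was computed.

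A miRNA is cut as a short duplex from a hairpin RNA, and the strand that is loaded into an Argonaute protein guides it to mRNAs that pair with its seed. The strands are called the 5p and the 3p arm, and often 1 of them dominates. The miR-199a-2 and miR-214 hairpins are made from the same noncoding transcript, *Dnm3os*, which runs opposite to an intron of the dynamin gene *Dnm3*. The cluster is known from mesenchymal cells such as fibroblasts, where the transcription factor Twist1 switches it on. In fibroblasts miR-199a-5p is known to repress caveolin-1, and miR-214-3p is known to repress *Ezh2* in muscle.

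Mature sequences of 4 of the 5 members were found in the RefSeq table of build GRCm38.p6, which did not hold miR-199b-5p. They are shown because the seed sets which mRNAs a miRNA can pair with. They also show the sequences of miR-199a-5p and miR-199a-3p, each of which is shared by several genes. They are written 5′ to 3′, with the seed, bases 2 to 8, in capitals.

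mmu-miR-199a-5p: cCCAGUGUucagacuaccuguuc

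mmu-miR-199a-3p: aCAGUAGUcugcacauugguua

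mmu-miR-214-3p: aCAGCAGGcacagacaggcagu

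mmu-miR-214-5p: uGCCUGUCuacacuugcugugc

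The 4 seeds were all different, so the arms of 1 hairpin do not share a seed. Among the mature mouse sequences of the table, the seed of miR-214-3p was also that of miR-761, whose signal was not detected on either array. The seed of miR-199a-3p was shared with miR-199b-3p, which has the same mature sequence throughout and no row of its own on the array. The signal of the miR-199a-3p probes therefore cannot be assigned to 1 of the genes *Mir199a-1*, *Mir199a-2* and *Mir199b*. No other sequence of the table shared the seed of miR-199a-5p or that of miR-214-5p. The seed of miR-199b-5p could not be compared, since the table did not hold its sequence, so whether it shares one of these seeds was not tested.

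The hairpins are shown to place both arms, which are in capitals. *Mir199a-2* lies on chromosome 1, plus strand, at chr1:162217814-162217923, and *Mir214* lies 5444 bases downstream on the same strand, at chr1:162223368-162223477. Both lie within the annotated span of *Dnm3os* and within that of *Dnm3*. *Mir199a-1* lies on chromosome 9, minus strand, at chr9:21496495-21496564, within the span of *Dnm2*.

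Mir199a-2: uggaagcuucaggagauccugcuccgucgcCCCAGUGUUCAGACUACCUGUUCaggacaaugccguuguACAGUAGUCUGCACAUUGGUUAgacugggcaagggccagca

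Mir214: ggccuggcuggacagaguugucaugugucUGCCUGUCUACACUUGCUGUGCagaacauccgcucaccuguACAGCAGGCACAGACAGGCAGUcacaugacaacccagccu

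Mir199a-1: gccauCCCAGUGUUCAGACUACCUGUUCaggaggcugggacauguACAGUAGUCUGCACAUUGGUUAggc

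Feature Extraction, the scanner software, called 4 of the 5 members detected, and it called the same 4 on each array. They were miR-199a-3p, miR-199b-5p, miR-214-3p and miR-214-5p, whereas miR-199a-5p was detected on neither array. Of all 1881 miRNAs, 216 were detected on both arrays, which is 11.5%. The share depended on the call. When a probe of the miRNA needed at least 50% of its spots well above background on each array, the members that passed were 2 of 5, miR-199a-3p and miR-214-3p, against 7.07% of all miRNAs. When those spots only had to be positive and significant against background, all 5 passed, against 24.9% of all miRNAs. When every probe of the miRNA had to be detected on both arrays, none of the 5 passed, against 7.5% of all miRNAs. Thus the number of members detected lay between 0 and 5 across the calls, and each member had a probe near or under the detection limit. For miR-199a-3p and miR-214-3p, however, 1 probe had all 15 of its spots well above background on both arrays.

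The members had 12 probes with 150 spots on each array. After spots marked as outliers were left out, 149 spots remained in replicate 1 and 146 in replicate 2, and 0 were saturated. Values are background-subtracted fluorescence intensities, given as the mean ± SD over the spots of 1 probe on 1 array, so this SD is technical. The brightest of the negative control spots had an intensity of 9.45 in replicate 1 and 9.35 in replicate 2, with medians of 0.619 and 0.739. The detection call of a probe required a total signal above 3 times the error that the software assigns. On that measure 8 of the 12 probes were detected in replicate 1, 6 in replicate 2 and 6 on both. Of all 4415 miRNA probes on the array, 483 were detected in replicate 1, 406 in replicate 2 and 393 on both.

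The arm miR-199a-3p had the highest mean signal over its probes among the 5 members on both arrays. Its second probe gave 24.1 ± 3.71 over 15 spots in replicate 1 and 24.6 ± 3.96 over 15 spots in replicate 2. All 15 spots lay above the brightest negative control spot on each array, and the signal was 6.24 times its error on both. Its first probe was dimmer, with 9.48 ± 3.30 over 15 spots in replicate 1 and 8.31 ± 1.85 over 13 spots in replicate 2. That probe was just past the detection threshold in replicate 1, at 3.0 times its error, and short of it in replicate 2, at 2.62 times. The second probe changed between the arrays by less than the SD of its spots.

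The opposite arm, miR-199a-5p, was not detected. Its first probe gave 4.13 ± 3.09 in replicate 1 and 4.46 ± 3.06 in replicate 2, and its second probe gave 1.5 ± 3.32 and 0.564 ± 1.97, with 15 spots each. The signals were between 0.185 and 1.44 times their errors. Of the negative control spots, 7.40% in replicate 1 and 9.45% in replicate 2 were at least as bright as the mean of the first probe, and 34.7% and 52.5% were at least as bright as the mean of the second. At this signal over background the arm was not detectable, which does not show that it was absent.

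The miRNA miR-199b-5p, the 5p arm of the *Mir199b* hairpin, rested on 1 of its 2 probes. The second probe gave 17.4 ± 4.35 over 15 spots in replicate 1 and 14.4 ± 2.39 over 15 spots in replicate 2, at 4.99 and 4.26 times its error. Of its 15 spots, 11 were well above background in replicate 1 and 6 in replicate 2. The first probe gave 6.18 ± 2.91 and 3.98 ± 2.10, at 2.01 and 1.29 times its error, and was not detected on either array. In replicate 2, 12.9% of the negative control spots were at least as bright as the mean of this dim probe. Whether the probes of miR-199b-5p also bind miR-199a-5p was not tested, since the scanner files give no probe sequence. The probes listed for miR-199a-5p themselves stayed under the detection threshold.

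For miR-214-3p, known as the main arm of this hairpin, 1 of 2 probes carried the signal as well. The second probe gave 24.7 ± 2.28 over 15 spots in replicate 1 and 21.3 ± 2.88 over 15 spots in replicate 2, at 6.35 and 5.71 times its error. On each array its 15 spots were all well above background. The first probe gave 4.25 ± 3.12 and 4.09 ± 2.30, at 1.40 and 1.33 times its error. Thus a probe among the brightest of the cluster and an undetected one were listed for the same miRNA.

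The arm miR-214-5p was the exception, since it had 4 probes of 7 or 8 spots that gave similar signals. In replicate 1 they gave 11.4 ± 2.78, 11.5 ± 2.16, 12.2 ± 3.34 and 11.5 ± 3.26. In replicate 2 they gave 10.8 ± 2.40, 7.86 ± 1.12, 12.5 ± 1.88 and 10.2 ± 3.42. All 4 probes were detected in replicate 1, at 3.54 to 3.76 times their errors, and 3 of the 4 in replicate 2, where the second was at 2.49 times its error. Few of the spots were well above background, at most 2 for any probe on either array.

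**Figure D1:**
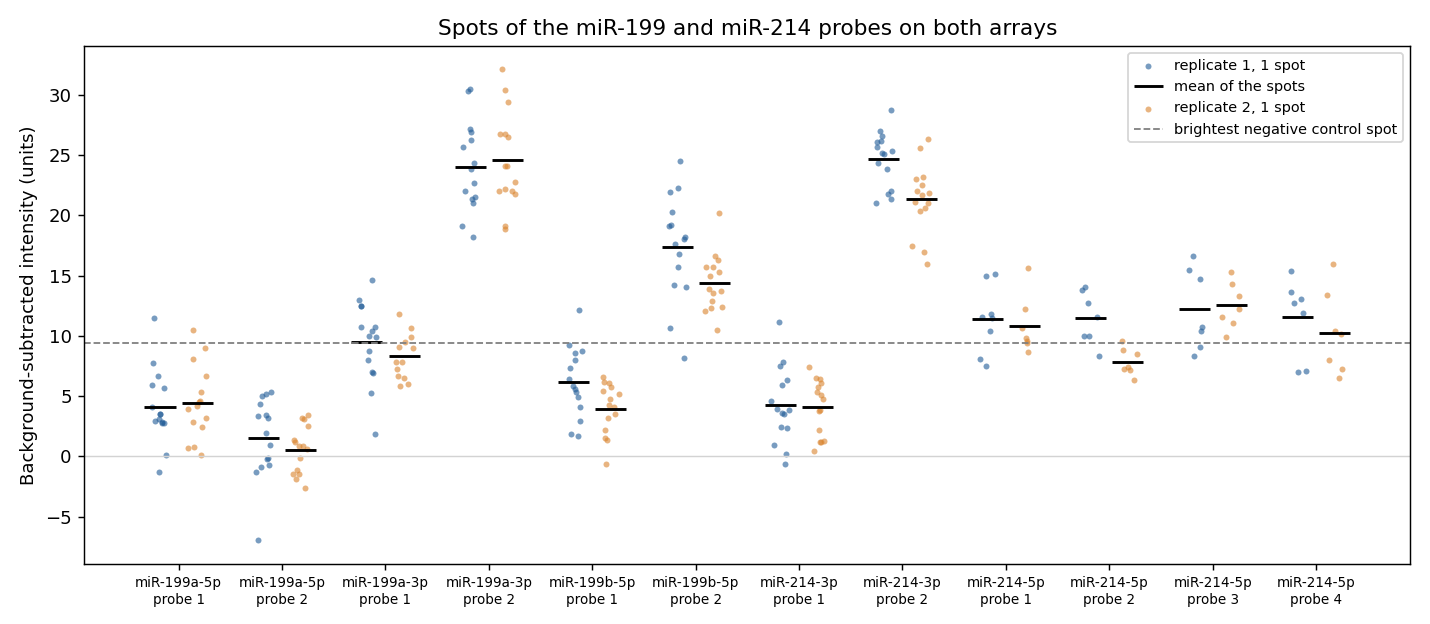
Background-subtracted intensity of every spot used, for the 12 probes of the 5 members, with replicate 1 in blue and replicate 2 in orange and a bar at the mean of the spots. The dashed line marks the brightest negative control spot, 9.45; the second probes of miR-199a-3p, miR-199b-5p and miR-214-3p have their means above it, whereas both probes of miR-199a-5p have their means below it.

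**Figure D2:**
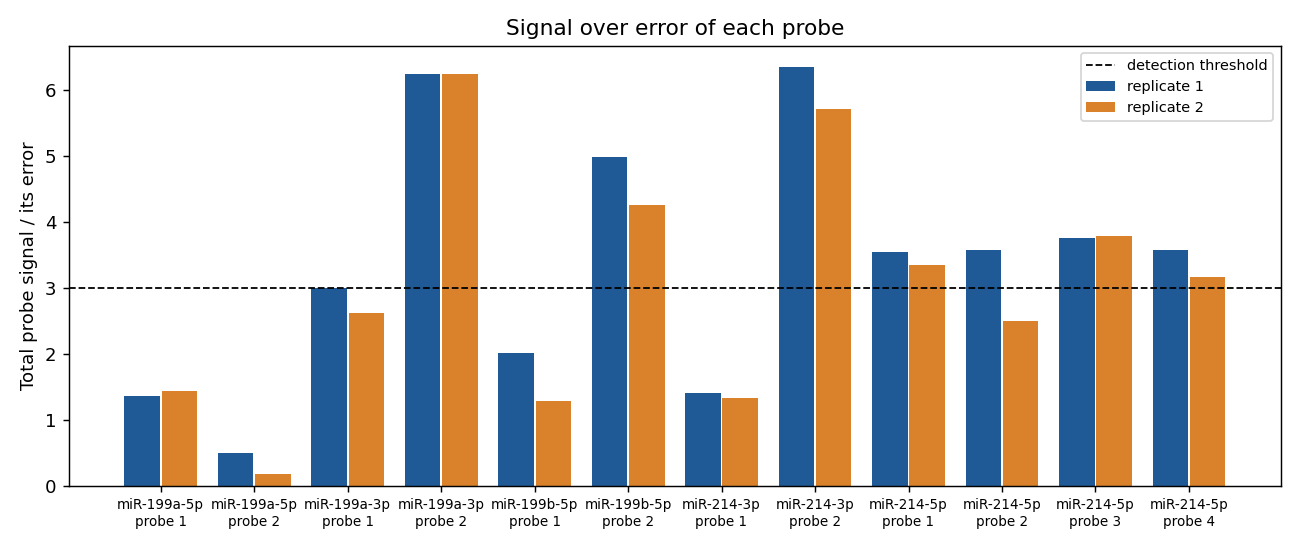
Total signal of each probe divided by its error as given by Feature Extraction, for replicate 1 (blue) and replicate 2 (orange). The dashed line marks the detection threshold of 3; the highest bars belong to the second probes of miR-214-3p and miR-199a-3p, and the 4 probes of miR-214-5p lie between 2.49 and 3.79.

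To compare the arrays, spot intensities were scaled to a 75th percentile taken on each array among the 393 probes with signal on both, 50.2 intensity units in replicate 1 and 39.95 in replicate 2. The log2 was then averaged over spots and over probes, so that a level of 0 is a signal at that percentile and a level 1 lower is a signal 2 times as low. The level of miR-199a-3p was -1.81 in replicate 1 and -1.51 in replicate 2, with a mean of -1.66 ± 0.21 (SD, n = 2 arrays). For miR-214-5p the levels were -2.15 and -1.996, with a mean of -2.07 ± 0.11. For miR-214-3p they were -2.98 and -2.28, with a mean of -2.63 ± 0.49, and for miR-199b-5p they were -2.40 and -2.96, with a mean of -2.68 ± 0.40. No level of miR-199a-5p is compared with those of the other members. The reason is that spots without positive signal took the lowest positive value before the log2. For its second probe, 6 of the 15 spots were at or below 0 on each array.

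All 4 detected members lay below the 75th percentile on both arrays. By mean level, miR-199a-3p had rank 121 of the 216 detected miRNAs, miR-214-5p rank 158, miR-214-3p rank 191 and miR-199b-5p rank 194. Since the strength of binding differs between probes, these ranks order the signals and say nothing of the amounts. The levels and ranks of miR-214-3p and miR-199b-5p average in an undetected probe, and with the brightest probe of each miRNA the ranks were 92 for miR-199a-3p, 98 for miR-214-3p, 143 for miR-199b-5p and 179 for miR-214-5p. Thus the order of the members was not fixed. The level of miR-199a-3p was above those of the other 3 on each array with all probes, but with the brightest probe miR-214-3p was higher in replicate 1, at -1.03 against -1.08. With all probes, the order of miR-214-3p and miR-199b-5p was not the same on the arrays, since miR-199b-5p was higher by 0.58 in replicate 1 and lower by 0.67 in replicate 2. Among the miRNAs not detected on both arrays, 20 had a higher level than miR-199b-5p, 19 a higher level than miR-214-3p and 4 a higher level than miR-214-5p, against 0 for miR-199a-3p.

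Replicate 2 minus replicate 1 was 0.30 for miR-199a-3p, 0.15 for miR-214-5p, 0.69 for miR-214-3p and -0.56 for miR-199b-5p on the log2 scale. Over all 216 detected miRNAs the median of this difference was 0.21, with 5th and 95th percentiles of -1.26 and 0.91, and the 4 members lay within that range. A larger difference than that of miR-214-5p, without regard to sign, was found for 85.6% of the 216 miRNAs. For miR-199a-3p, miR-199b-5p and miR-214-3p this share was 59.7%, 30.1% and 21.8%. The levels of miR-214-3p and miR-199b-5p include a probe that was detected on neither array, with 1 spot at or below 0 in replicate 1 for miR-214-3p and in replicate 2 for miR-199b-5p, so their differences are not measured on both sides. With the spots averaged before the log2, a setting added after the values were seen, the differences were 0.19 for miR-214-3p and -0.13 for miR-199b-5p.

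**Figure D3:**
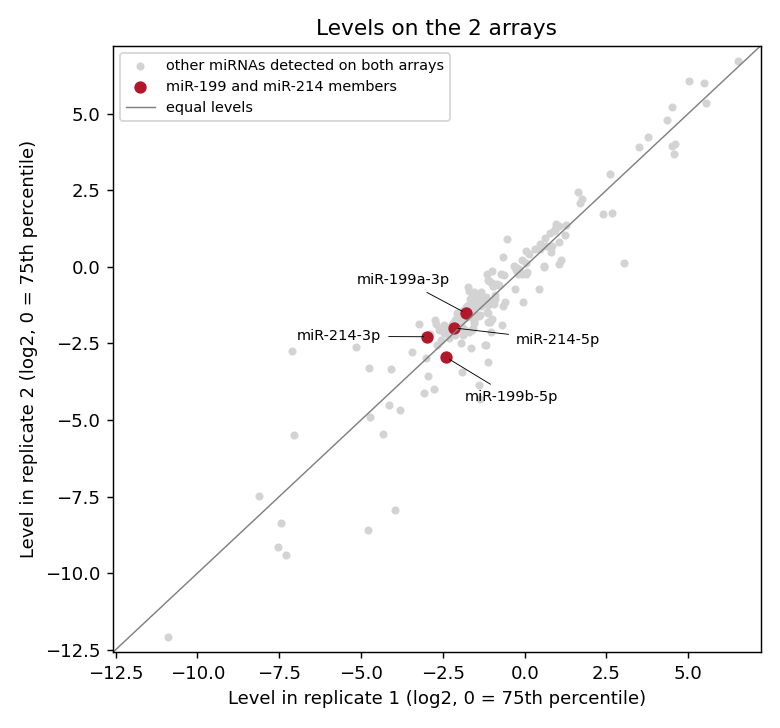
Level of each of the 216 miRNAs detected on both arrays, in replicate 1 (x axis) against replicate 2 (y axis), on the log2 scale with 0 at the 75th percentile of the array. The 4 detected members, in red, lie between -2.98 and -1.51 on both axes, in the lower part of the main cloud. Their differences from the line of equal levels run from -0.56 for miR-199b-5p to 0.69 for miR-214-3p.

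Having a probe without a detection call on 1 or both arrays was common among detected miRNAs, with 75 of 216 or 34.7%, and all 4 detected members were among these.

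Both arms of the *Mir214* hairpin were detected, but only the 3p row of miR-199a. The signal of that row could also come from miR-199b-3p, which has the same sequence, so it is not assigned to a miR-199a hairpin. The array had rows for the 5p and the 3p arm of 723 hairpin names, and at least 1 arm was detected on both arrays for 146 of them. Both arms were detected for 7, which is 0.968% of the 723 and 4.79% of the 146. The other 6, named after their values were seen, were let-7b, miR-483, miR-6769b, miR-7045, miR-7047 and miR-7082. For 57 hairpin names the 3p arm alone was detected, as for the rows named miR-199a, and for 82 the 5p arm alone. The call for miR-214-3p rested on 1 of its 2 probes, as described above.

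The cluster was set beside miRNAs known from mesenchymal, epithelial, and blood or serum sources. Of 11 other miRNAs known from mesenchymal and smooth muscle cells, 2 were detected on both arrays, miR-21a-5p and miR-125b-5p, against 11.5% of all miRNAs, and both of these are also known from many other cell types. The mean signal over the probes of miR-21a-5p was 40.5 in replicate 1 and 54.9 in replicate 2, and that of miR-125b-5p was 34.4 and 24.8. By level, miR-21a-5p had -0.57 ± 0.60 and miR-125b-5p had -2.84 ± 2.10 (SD, n = 2 arrays), with 1 of the 2 probes of miR-125b-5p undetected on both arrays. The remaining 9 were miR-143-3p, miR-143-5p, miR-145a-5p, miR-145a-3p, miR-145b, miR-10b-5p, miR-152-3p, miR-22-3p and miR-100-5p, which were detected on neither array. Their mean signals over probes were at most 3.49, and their brightest single probe, 1 of the 2 for miR-22-3p, gave 7.86 in replicate 1 and 6.93 in replicate 2, at 2.53 and 2.21 times its error. The miR-143/145 cluster, known as a mark of smooth muscle cells and fibroblasts, was thus under the detection limit in all 5 of its rows. The name mesenchymal for miR-199/miR-214 comes from its known biology, and detection of the cluster here does not show which cells its RNA came from.

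Of 7 epithelial miRNAs, 0 were detected on either array. Among all 1881 miRNAs, 260 were detected on at least 1 array and 11.5% on both. The 7 epithelial miRNAs were miR-200a-3p, miR-200b-3p, miR-200c-3p, miR-141-3p, miR-429-3p, miR-205-5p and miR-203-3p. Their mean signals lay between -2.17 and 0.839 in replicate 1 and between -1.56 and 0.417 in replicate 2, within the range of the negative control spots, and their 14 probes were at most 0.345 times their errors. The 4 detected members had mean signals of 11.7 to 16.8 in replicate 1 and 9.19 to 16.4 in replicate 2.

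Of 10 miRNAs on the array known from blood cells, serum, liver or muscle, 0 were detected on either array. Over the whole array, 260 of 1881 miRNAs were detected on at least 1 array and 11.5% on both. The brightest of the 10 was miR-223-3p of myeloid cells, with a mean signal of 6.92 in replicate 1 and 8.15 in replicate 2. Its probes were at 2.10 to 2.60 times their errors, just under the threshold. The defining miRNAs of red cells and liver, miR-451a and miR-122-5p, had signals between 1.34 and 1.85. All 20 probes of this list were under the detection threshold. Serum was present in the culture, and whether serum RNA was part of the signal of the cluster was not tested.

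**Figure D4:**
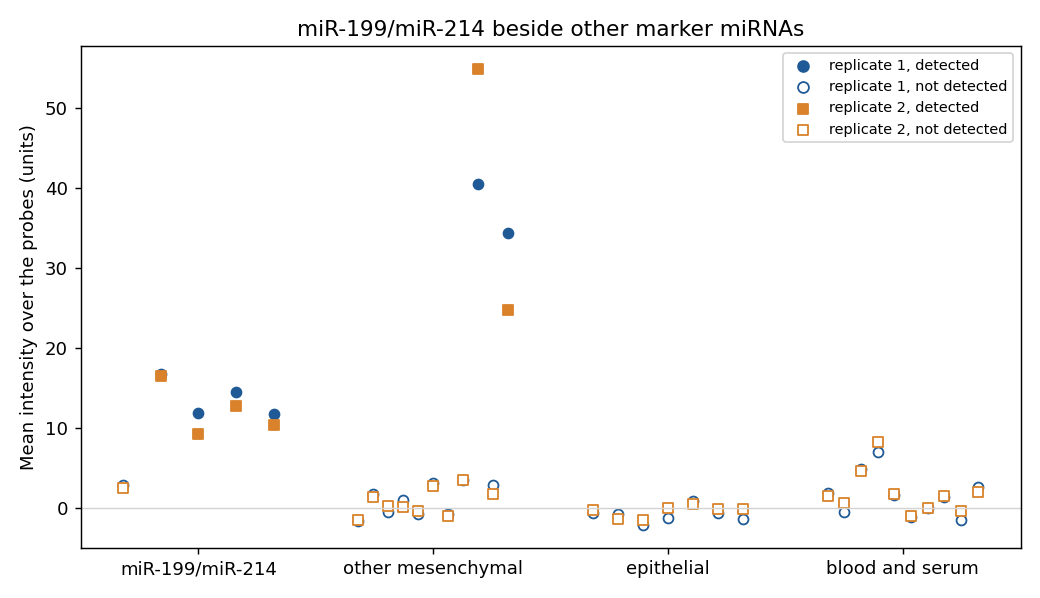
Mean background-subtracted intensity over the probes of each miRNA, with 1 point for each miRNA and array (circles for replicate 1, squares for replicate 2, filled where detected). The 4 detected miR-199/miR-214 members lie between 9.19 and 16.8, miR-21a-5p and miR-125b-5p lie above them, and the epithelial miRNAs lie around 0.

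Feature Extraction also reports a total signal per miRNA, on a scale of its own that differs from the spot intensities above, and for several members this total was not the sum of the totals of their detected probes. The total of miR-214-3p was 61.2 in replicate 1 against a sum of 5.23, and 26.4 in replicate 2 against 4.52, which is 11.7 and 5.84 times the sum. For miR-199b-5p the totals were 10.8 against 3.69 and 18.1 against 3.05, and for miR-199a-3p they were 7.11 against 7.11 in replicate 1 and 14.996 against 5.21 in replicate 2. For miR-214-5p the total and the sum were both 4.94 in replicate 1 and both 3.48 in replicate 2. Of the 8 totals of detected members, 5 were raised by over 1%, and in each of these 5 the first probe of the miRNA was undetected on that array, whereas it was detected for the other 3. To within 0.1%, the excess of miR-199b-5p was equal to the total of miR-199a-3p on each array, that of miR-214-3p was equal to the total of miR-2137 on each array, and that of miR-199a-3p in replicate 2 was equal to the total of miR-1982-5p. By the deposited totals miR-214-3p had rank 33 of 216, against rank 150 by the sum of its own detected probes, so the totals were not used for the levels. Over all detected miRNAs, 60 of 253 totals were raised above the sum of their own detected probes in replicate 1 and 65 of 223 in replicate 2.

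**Figure D5:**
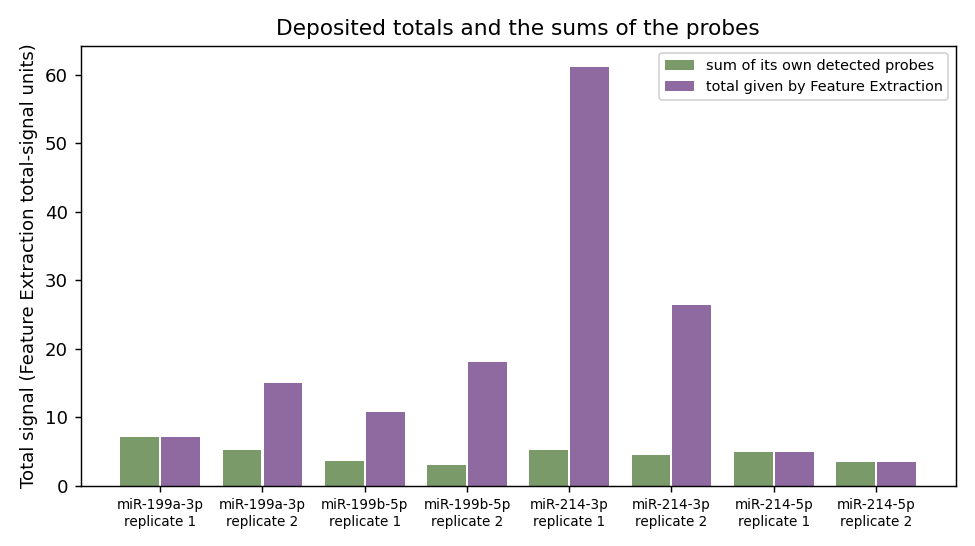
Summed totals of the detected probes of each miRNA (green) and the total that Feature Extraction gives for it (purple), in total-signal units, for the 4 detected members on each array. The bars are equal for miR-214-5p and for miR-199a-3p in replicate 1, and they are farthest apart for miR-214-3p in replicate 1, at 5.23 and 61.2.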

How the data were processed

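Exosomal miRNAs were measured on 2 Agilent mouse miRNA arrays. The authors deposited the fluorescence intensity of each spot from Feature Extraction, version 10.7.1.1 in the file header and 9.1 in the submitters' processing notes, with background subtracted and without normalization between arrays, and a table of log2 values whose scale and centring are not given in the sources used here (the median of each column is -3.32, also its lowest value). The labels describe a blood RNA kit with globin removal, and the paper names a miRNA kit for PCR. Both arrays were on 1 slide and in 1 scan.

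Control spots and outlier spots were left out. Signals were divided by the 75th percentile over probes detected on both arrays, spots without positive signal took the lowest positive value, and log2 values were averaged over spots and probes. The number of arrays limits the precision. The computation was tested on simulated data. The simulated miRNAs had equally bright probes well above the noise, so the test does not cover members with an undetected probe or signals near background. The members and lists were chosen with earlier results of these data known. The miRNAs named were the 5 members, list miRNAs detected on at least 1 array, those sharing a seed, and the miRNAs next to a member by level. List miRNAs detected on neither array, the hairpins with both arms detected, and miR-2137 and miR-1982-5p are outside this rule and were named after their values were seen. Of 1881 miRNAs, 1608 were matched to a RefSeq sequence. Python 3.11.15, numpy 2.4.6, pandas 2.3.3, R 4.3.3 and limma 3.58.1 (normexp, offset 50) were used.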

Additional observations from a re-analysis of the deposited data

How the results depend on the processing

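The number of members detected on both arrays was 2 with spots well above background, 0 with every probe detected, 5 with positive and significant spots and 4 with either replicate left out, against 4. The levels are given here in the order miR-199a-3p, miR-199b-5p, miR-214-3p, miR-214-5p and miR-199a-5p. The last was not detected, and its values are listed only to show how they depend on the setting. With the 75th percentile over all probes, which changes the scale by construction, they were 2.56, 1.54, 1.58, 2.14 and -3.15. With normexp background correction they were -0.48, -0.60, -0.55, -0.59 and -0.79. With the brightest probe they were -0.90, -1.53, -0.97, -1.89 and -4.36. The deposited log2 table gave 2.63, 1.65, 2.19, 2.002 and -1.51. The total signal of Feature Extraction gave -1.36, -0.92, 0.61 and -2.67 for the first 4, and the sum of own detected probes gave -1.42, -2.28, -1.74 and -1.97. With the spots averaged before log2, miR-199a-5p had -4.49. The cause was not tested beyond the values of the probes above. With each replicate left out in turn, levels ranged from -1.81 to -1.51, -2.96 to -2.40, -2.98 to -2.28, -2.15 to -1.996 and -7.59 to -7.14. Quantile normalization and keeping the outlier spots moved every member's level by less than its SD.

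Over these settings the rank of signal ranged from 92 to 133 for miR-199a-3p, 87 to 194 for miR-199b-5p, 33 to 196 for miR-214-3p and 153 to 206 for miR-214-5p. The ranks of 87, 33 and 206 came from the total signal of Feature Extraction, which was not used for the levels. The next most extreme were 143 for miR-199b-5p, 98 for miR-214-3p and 179 for miR-214-5p, with the brightest probe. Replicate 2 minus replicate 1 changed sign under at least 1 setting for each of the 5 members, so no direction between the arrays holds. No paired analysis was possible because both arrays belong to the same group. Signal over background limits miR-199a-5p, miR-199b-5p and miR-214-3p, which hold the 4 of 12 probes that were detected on neither array.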

Other observations

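In the deposited log2 table, miR-199a-5p had values of -2.23 in replicate 1 and -0.80 in replicate 2, above the lowest value of -3.32 in both columns, although it was detected on neither array. The other 4 members had values between 1.33 and 2.68 in that table.

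The miRNAs next to the detected members by mean level were miR-188-5p above and miR-1249-3p below miR-199a-3p, miR-290a-3p and miR-7038-5p around miR-214-5p, miR-6904-5p and miR-291b-5p around miR-214-3p, and miR-1198-5p and miR-125b-5p around miR-199b-5p. The levels of miR-188-5p and miR-1249-3p were -1.63 ± 0.01 and -1.66 ± 0.15 (SD, n = 2 arrays), against -1.66 ± 0.21 for miR-199a-3p. No likeness across conditions was computed, since there is 1 condition.

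The share of G and C was 59.1% for miR-214-3p, 54.5% for miR-214-5p, 52.2% for miR-199a-5p and 40.9% for miR-199a-3p. The median over the 182 detected miRNAs with a sequence was 59.1%, and over the 1426 others it was 52.2%.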
